A study of Mus musculus with 6 samples.

Results

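The Wnt-dependent genes of the colonic crypt stem cell were followed in organoids, 3-dimensional cultures of colon epithelium grown in Matrigel. The group was set by name and holds 10 of the 40840 genes in the table: Lgr4, Lgr5, Ascl2, Axin2, Rnf43, Znrf3, Sox9, Lrig1, Ephb2 and Ephb3. Control organoids came from 3 wt C57BL/6 mice. DSS organoids came from 3 wt C57BL/6 mice that had been given dextran sodium sulfate (DSS), which damages the lining of the colon, at 2.5% in drinking water in courses of 5 days, the first at 10 weeks of age and the other after an interval of 2 weeks. DSS organoids were set up 14 days after DSS, and RNA was taken on day 4 of culture in either group. The age of the control mice was not given. Each library is 1 culture, and the comparison asks what a colon that went through colitis leaves in cultured epithelium. Values are TPM (the share of a gene among all transcripts, corrected for transcript length and scaled to the same total in every library), so levels can be set side by side between genes.

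In the crypt, Wnt proteins bind Frizzled receptors and keep beta-catenin from being degraded, and beta-catenin then works with TCF factors in the nucleus. R-spondins strengthen the signal through the receptors LGR4 and LGR5, which remove the ubiquitin ligases RNF43 and ZNRF3 from the cell surface, where these would otherwise clear Frizzled. RNF43, ZNRF3 and AXIN2 are themselves products of Wnt target genes and act as negative feedback. By the study's methods, wt organoids grew in conditioned medium of L-WRN cells, which secrete Wnt3a, R-spondin and noggin, with a GSK3 inhibitor added. The values below therefore describe cells under supplied Wnt signal, and the effect of the medium was not tested.

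The libraries were epithelial: all 10 epithelial markers, Epcam, Cdh1 and Krt8 among them, were at 1 TPM or more, with a summed level of 17340 to 18530 TPM in control and 13160 to 19170 TPM in DSS libraries. Lymphocyte and endothelial markers summed to under 1 TPM in every library, and the collagen genes Col1a2 and Col3a1 and the fibroblast markers Lum and Thy1 were listed at 0 in all. Among the 9 fibroblast markers only Vim, which many cell types express, and Pdgfrb reached 1 TPM. Vim was 0.39 to 1.51 TPM in control and 5.92 to 15.86 TPM in DSS libraries (log2 difference 2.60, limma adjusted p = 0.0139). Pdgfrb overlapped between the groups. Markers of myeloid cells rose in DSS organoids in 5 of 7 tested, where 6.45% of all genes tested were called higher. Genes were tested if their mean over all 6 libraries was at least 1 TPM. Tyrobp, Fcer1g, Itgam and Laptm5 reached it only through their DSS values, so this count is tilted toward a rise. The summed level over the 13 listed was 55.8 to 75.0 TPM in control and 209.8 to 356.3 TPM in DSS libraries. Lyz2, the lysozyme gene of macrophages, was 1.09 to 5.19 TPM in control and 122.57 to 226.79 TPM in DSS libraries. Tyrobp, which encodes an adaptor protein of myeloid receptors, had a value of 0 in each control library and was 5.24 to 14.61 TPM in DSS libraries. Csf1r, Adgre1 and the leukocyte gene Ptprc were low but did not overlap either, Csf1r at 0.03 to 0.09 against 1.08 to 2.79 TPM and Ptprc at 0.05 to 0.08 against 0.30 to 0.47 TPM. DSS replicate 1 stood apart from DSS replicates 2 and 3 on the second principal component, which held 25.2% of the variance. Its summed proliferation markers were 1259 TPM, against 418.6 and 789.2 TPM in DSS replicates 2 and 3 and 306.5 to 347.5 TPM in control libraries. The summed proliferation markers were higher in every DSS library than in any control library, and 7 of 15 markers passed the test, all higher. Pcna and the replication genes Mcm2, Mcm3, Mcm5 and Mcm6 overlapped between the groups. In DSS replicate 2 these Mcm genes lay below every control library, Mcm3 at 7.08 against 11.74 to 12.83 TPM. The differentiated colonocyte markers of DSS replicate 1 summed to 3214 TPM, against 10370 and 9859 TPM in DSS replicates 2 and 3 and 6721 to 10740 TPM in control libraries, a sum led by Car1. Results that rest on DSS replicate 1 are therefore given with and without it.

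Crypt stem cell genes were expressed at very different levels, and the order was nearly shared by the groups. Ephb2 was the highest, with 42.6 ± 0.958 TPM in the control and 56.9 ± 10.6 TPM in the DSS group (mean ± SD, n = 3 each, here and below). Lgr4 and Lrig1 followed, with ranges that overlapped each other in either group and lay under that of Ephb2. Rnf43, Ephb3, Sox9, Axin2, Ascl2 and Znrf3 formed a lower step in which each gene overlapped the next one down. Lgr5 was the lowest, with 0.627 ± 0.135 TPM in the control and 0.347 ± 0.146 TPM in the DSS group, with no library as high as the lowest value of Znrf3. Since sequencing depth is unknown from TPM, no detection limit can be given for Lgr5.

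**Figure D1:**
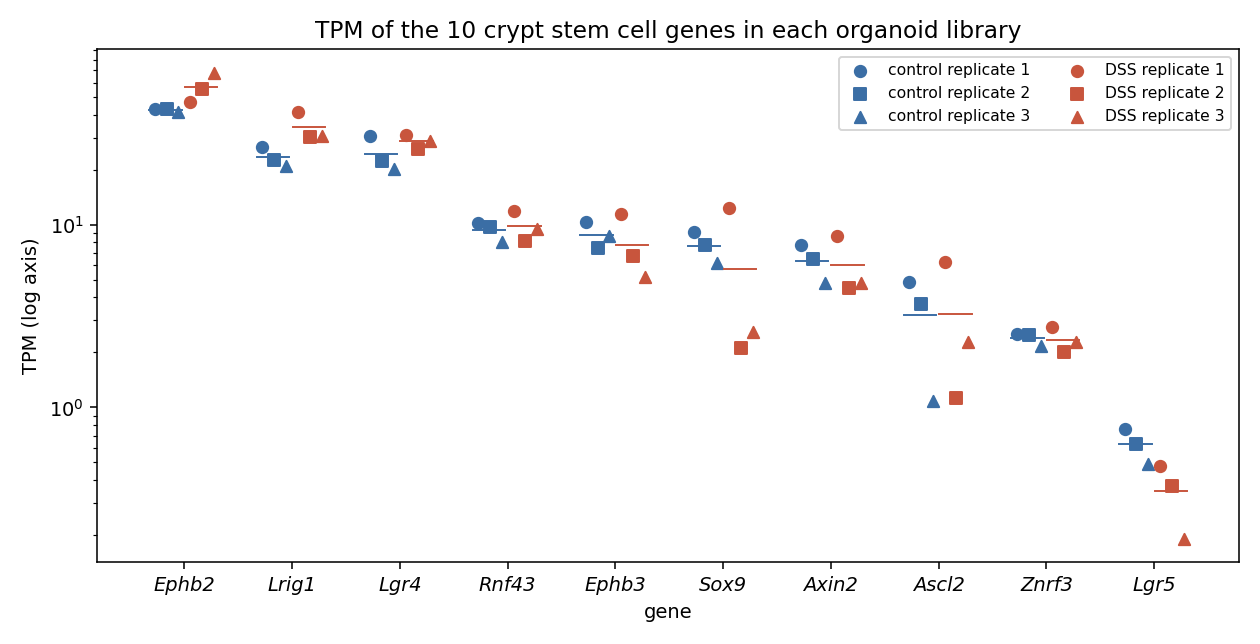
TPM of each gene (log axis) in the 3 control (blue) and 3 DSS libraries (red), with horizontal lines at the group means and genes ordered by their mean over all libraries. Ephb2 lies at 41.5 to 68.0 TPM and Lgr5 under 1 TPM in every library. For Sox9, DSS replicate 1 lies above the control values and DSS replicates 2 and 3 below them.

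No crypt stem cell gene passed the test between DSS and control organoids. The test was limma on log2(TPM + 1) for the 11643 genes with a mean of at least 1 TPM, with Benjamini-Hochberg adjustment over all of them and a threshold of 0.05. Of the 10 genes 9 met the filter, Lgr5 being the exception. Among these 9 genes 0 were called, where 10.3% of all genes tested were (6.45% higher and 3.89% lower in DSS organoids), and a count of 0 among 9 is near that background. At an unadjusted p under 0.05 there were 2 of 9, Lrig1 and Ephb2, against 29.6% of all genes tested. The median log2 difference of the 9 genes was −0.03, and that of all genes tested was 0.05. For 7 of the 9 genes the 95% interval of the difference lay within −1 and 1, so within a factor of 2 on the TPM + 1 scale. Ascl2 and Sox9 had wider intervals.

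**Figure D2:**
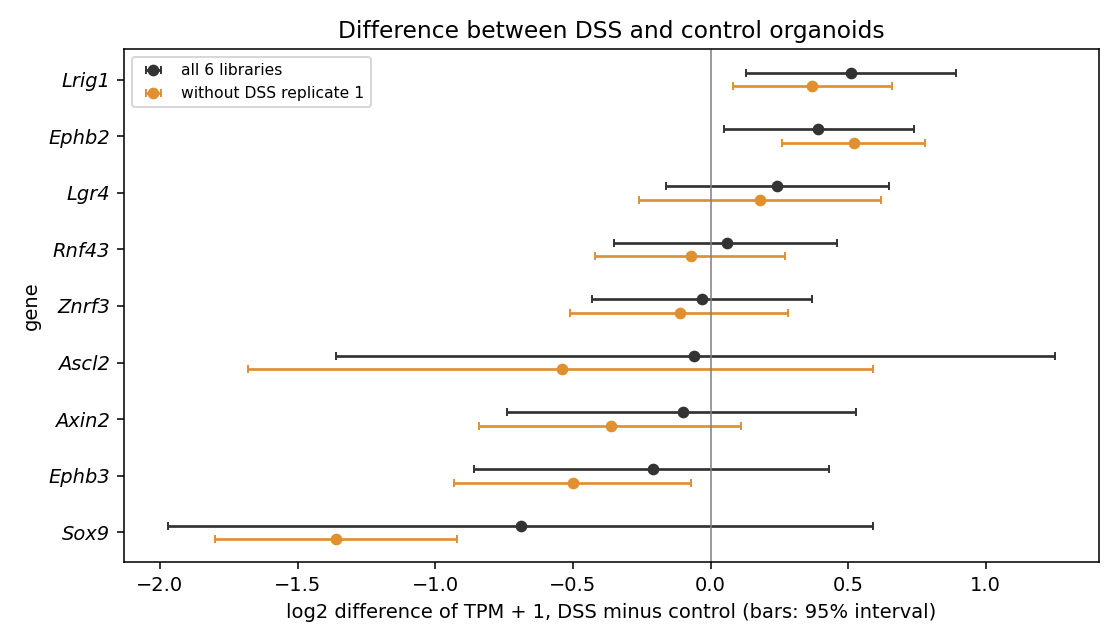
Difference between DSS and control organoids in log2(TPM + 1) for the 9 tested genes, with 95% intervals from limma, over all 6 libraries (black) and without DSS replicate 1 (orange). Over all libraries only the intervals of Lrig1 and Ephb2 lie above 0, and neither gene passes after adjustment. Without DSS replicate 1 the interval of Sox9 runs from −1.80 to −0.92.

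Neither receptor of R-spondin gave a call, and their values lay in different order. Lgr4, the broadly expressed receptor, was 30.56, 22.26 and 20.15 TPM in control replicates 1, 2 and 3 and 31.15, 25.93 and 28.72 TPM in DSS replicates 1, 2 and 3. The groups overlapped, and the log2 difference was 0.24 (SE 0.17, 95% interval −0.16 to 0.65, limma adjusted p = 0.389). Lgr5, the receptor that marks cycling stem cells at the crypt base, was 0.76, 0.63 and 0.49 TPM in the control libraries, and 0.48, 0.37 and 0.19 TPM in those of DSS mice. All DSS values of Lgr5 lay below all control values, as for 15.3% of all genes tested, with 0.49 and 0.48 TPM as the closest pair. Without the filter its log2 difference was −0.28 (limma adjusted p = 0.233), on a scale that understates changes of genes this low. In bulk RNA, fewer Lgr5 cells and less Lgr5 RNA per cell cannot be told apart.

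The share of Lgr5 TPM in Lgr4 TPM is taken within a library and is free of scaling between libraries. The log2 ratio of TPM + 1 is not fully free of it, since 1 is added to both values. Lgr5 stood at 2.49%, 2.83% and 2.43% of the Lgr4 TPM in control libraries and at 1.54%, 1.43% and 0.662% in DSS libraries. The groups did not overlap, and the log2 ratio of TPM + 1 differed by −0.52 (exact two-sided permutation p = 0.1, n = 3 each, the smallest that 20 arrangements of 3 and 3 libraries allow). With Lgr5 under 1 TPM this size depends on the pseudocount, and with 0.1 in place of 1 the difference was −0.99 (exact permutation p = 0.1). Lgr6, the third receptor, was at most 0.06 TPM in any library. R-spondin genes were listed at 0 in all libraries except Rspo4, at 0.09 and 0.06 TPM in DSS replicates 2 and 3.

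No feedback gene of the pathway passed the test, and the groups overlapped for all 3. Axin2, a scaffold of the complex that degrades beta-catenin and a common readout of Wnt signalling, was 7.75, 6.53 and 4.82 TPM in the control libraries, and 8.69, 4.49 and 4.8 TPM in those of DSS mice. The DSS values of Axin2 enclosed the control values, with a log2 difference of −0.10 (SE 0.27, 95% interval −0.74 to 0.53, limma adjusted p = 0.830). Rnf43 was 10.26, 9.76 and 8.0 TPM in the control libraries, and 11.84, 8.13 and 9.47 TPM in those of DSS mice, with a log2 difference of 0.06 (95% interval −0.35 to 0.46, adjusted p = 0.858). Znrf3, its relative, was lower than Rnf43 in every library, at 2.52, 2.50 and 2.18 TPM in the control libraries, and 2.76, 2.00 and 2.28 TPM in those of DSS mice. The groups overlapped for Znrf3 too (log2 difference −0.03, 95% interval −0.43 to 0.37, adjusted p = 0.931).

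Rnf43 exceeded Znrf3 by a steady factor. The ratio of their TPM was 4.07, 3.90 and 3.67 in control and 4.29, 4.07 and 4.15 in DSS libraries, so that the groups met at 4.07. The log2 ratio of TPM + 1 differed by 0.08 between the groups (exact two-sided permutation p = 0.5, n = 3 each). For the ratio of TPM with nothing added, the exact two-sided permutation p was 0.2.

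Neither transcription factor gene passed the test, and both varied widely among DSS libraries. Ascl2, a basic helix-loop-helix factor that maintains Lgr5 stem cells, was 4.88, 3.67 and 1.09 TPM in the control libraries, and 6.28, 1.13 and 2.29 TPM in those of DSS mice. Its lowest control and its lowest DSS value were nearly equal, its group means were 3.21 and 3.23 TPM, and the 95% interval of its log2 difference was wide (−1.36 to 1.25, limma adjusted p = 0.956). The interval thus spans 0.390 to 2.37 times the control level on the TPM + 1 scale.

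Sox9, a factor of crypt base and progenitor cells, was split within the DSS group. It was 9.09, 7.73 and 6.20 TPM in control libraries, 12.36 TPM in DSS replicate 1, and 2.12 and 2.59 TPM in DSS replicates 2 and 3. DSS replicate 1 was thus the highest of the 6 libraries, at 5.25 times the mean of the other DSS libraries, and these were the lowest. Over all libraries the log2 difference of Sox9 was −0.69 (SE 0.54, limma adjusted p = 0.433). Without DSS replicate 1 it was −1.36 (SE 0.18, adjusted p = 0.00906), a fit in which 21.5% of all genes tested were called and 6.93% were called lower. In the same library 15 of 15 proliferation markers and 5 of 8 goblet markers were the highest of the 6 libraries, and 5 of 10 colonocyte markers the lowest. Exceptions were the goblet genes Clca1, Fcgbp and Zg16 and the colonocyte genes Slc26a3, Alpi, Slc9a3, Guca2a and Guca2b. Of these, Slc26a3 was highest in DSS replicate 1, and Guca2a and Guca2b lay above every control library there. The part of these markers in the Sox9 value was not tested. The value without this library rests on 2 DSS cultures.

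Lrig1, which encodes a transmembrane protein that restrains ErbB receptors and marks a population of crypt stem cells, was higher in every DSS library than in any control library. It was 26.79, 22.72 and 21.06 TPM in the control libraries, and 41.38, 30.41 and 30.73 TPM in those of DSS mice. The mean was 1.45 times the control mean, but the log2 difference of 0.51 (SE 0.16, 95% interval 0.13 to 0.89) did not pass adjustment (limma adjusted p = 0.0897). The adjusted p ranged from 0.0744 to 0.27 when each library was left out in turn. Groups without overlap were common: they were seen for 36.4% of all genes tested (higher in DSS organoids for 21.1%), and for 2 of the 9 tested crypt genes, Lrig1 and Ephb2. The summed levels of myeloid and of proliferation markers separated the groups too. In DSS replicates 1, 2 and 3 they were 259.1, 356.3 and 209.8 TPM and 1259, 418.6 and 789.2 TPM. Single markers such as Cd14, Pcna and the Mcm genes overlapped. The part of these markers in the values of Lgr5, Lrig1 and Ephb2 was not tested.

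EphB receptors, which answer to ephrins on neighbouring cells and set the position of cells along the crypt, gave no call with all libraries. Ephb2 was 43.28, 42.92 and 41.47 TPM in the control libraries, and 46.91, 55.71 and 67.95 TPM in those of DSS mice, so that every DSS value was the higher. Its control values spanned less than 2 TPM. The log2 difference was 0.39 (SE 0.15, 95% interval 0.05 to 0.74, limma adjusted p = 0.13). Without DSS replicate 1, the lowest of the 3, it was 0.52 (SE 0.11, adjusted p = 0.0235), where 14.5% of all genes tested were called higher. This value rests on DSS replicates 2 and 3 alone. When any other library was left out, the limma adjusted p of Ephb2 ranged from 0.164 to 0.314.

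Ephb3 was 10.36, 7.46 and 8.65 TPM in the control libraries, and 11.46, 6.74 and 5.15 TPM in those of DSS mice, and the groups overlapped (log2 difference −0.21, SE 0.27, adjusted p = 0.643). Without DSS replicate 1 its log2 difference was −0.50 (adjusted p = 0.0899), with both remaining DSS values below the control values. The ratio of Ephb2 to Ephb3 TPM was 4.18, 5.75 and 4.79 in control libraries and 4.09, 8.27 and 13.2 in DSS replicates 1, 2 and 3. DSS replicates 2 and 3 thus exceeded every control library, and DSS replicate 1 was below them all. The log2 ratio of TPM + 1 differed by 0.61 between the groups (exact two-sided permutation p = 0.4, n = 3 each), and by 1.02 without DSS replicate 1.

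The start regions of Ephb2 and Ephb3 are shown because these sister receptors took opposite orders over the DSS libraries, and that of Axin2 because it is the common readout of the pathway. Sequences are from RefSeq on build GRCm38.p6, an earlier build than the GRCm39 of the expression table, and run from 250 bases before to 50 bases after the annotated start, 5′ to 3′ on the gene's strand. Capitals mark CAGCTG, the E-box letters that achaete-scute factors such as ASCL2 bind.
Axin2 promoter, GRCm38.p6, chr11:108920099-108920398, plus strand: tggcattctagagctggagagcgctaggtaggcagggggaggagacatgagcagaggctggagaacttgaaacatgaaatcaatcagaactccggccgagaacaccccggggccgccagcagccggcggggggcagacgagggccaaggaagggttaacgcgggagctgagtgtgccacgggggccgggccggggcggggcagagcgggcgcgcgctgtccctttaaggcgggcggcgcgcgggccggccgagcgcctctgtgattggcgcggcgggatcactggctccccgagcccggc
Ephb2 promoter, GRCm38.p6, chr4:136835963-136836262, minus strand: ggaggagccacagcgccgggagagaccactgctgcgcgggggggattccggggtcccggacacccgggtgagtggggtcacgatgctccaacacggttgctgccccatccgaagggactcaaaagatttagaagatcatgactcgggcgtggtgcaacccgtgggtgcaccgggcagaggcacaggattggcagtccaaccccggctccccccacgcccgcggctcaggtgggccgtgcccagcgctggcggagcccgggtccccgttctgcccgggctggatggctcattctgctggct
Ephb3 promoter, GRCm38.p6, chr16:21204545-21204844, plus strand: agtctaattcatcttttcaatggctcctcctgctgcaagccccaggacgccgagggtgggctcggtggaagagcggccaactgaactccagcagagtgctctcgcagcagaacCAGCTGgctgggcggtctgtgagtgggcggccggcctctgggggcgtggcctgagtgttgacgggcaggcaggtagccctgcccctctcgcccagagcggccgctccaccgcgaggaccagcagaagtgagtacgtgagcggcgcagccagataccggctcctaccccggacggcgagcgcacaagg
The table matched 7 of the 10 genes with 8 start regions, Rnf43 having 2. CTTTGA and CTTTGT, core letters bound by TCF factors, were searched on both strands and were in 0 of the 8, where 31.2% of 32851 start regions of 300 bases held either. CAGCTG, which reads the same on both strands and overlaps neither of the other motifs, was in 1 of the 8, that of Ephb3 at 137 bases before the start, against 16.3% of all. These counts describe letters in a short window only.

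Within either group the crypt genes tended to follow the same libraries. All 10 were highest in control replicate 1 among control libraries, as were 45.6% of all genes tested. In the DSS group 9 of 10 were highest in DSS replicate 1, Ephb2 being the exception, as were 35.8% of all genes tested. Both held for 9 of 10, as did 18.8% of all genes tested. The size differed: Ascl2 was 4.48 times as high in control replicate 1 as in control replicate 3, Axin2 1.61 times and Ephb2 1.04 times.

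Goblet cell markers followed a like order. Among DSS libraries all 8, with Atoh1, Spdef and Muc2, were highest in replicate 1, and among control libraries 7 of 8 were highest in replicate 1, where the summed goblet level was 3500 TPM against 2796 and 1941 TPM in control replicates 2 and 3. Proliferation markers did not follow it in the control group. All 15 were highest in DSS replicate 1, but 13 of 15 were lowest in control replicate 1. What the shared order of crypt and goblet genes owes to the cell types in each culture was not tested. The labels give replicate numbers but do not say whether these pair control with DSS cultures, and no pairing was assumed.

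**Figure D3:**
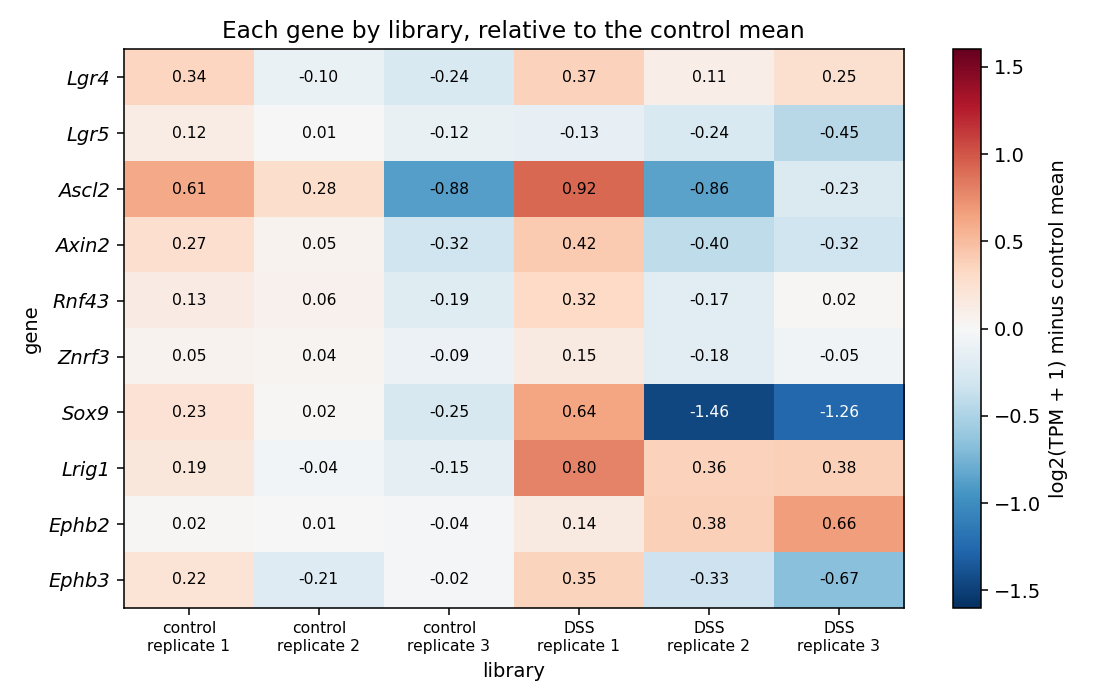
Each gene (rows) in each library (columns) as log2(TPM + 1) minus the mean of the 3 control libraries, red above and blue below it. In DSS replicate 1 all genes except Lgr5 lie above the control mean, whereas Sox9 is at −1.46 and −1.26 in DSS replicates 2 and 3. Lgr4, Lrig1 and Ephb2 lie above the control mean in all 3 DSS libraries.

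The genes whose pattern over the 6 libraries was closest to that of Axin2 were Pdp2, Foxa3 and Plpp1, with root mean square differences of 0.0549, 0.0850 and 0.0856 in centred log2(TPM + 1). Foxa3, a forkhead factor, was 21.55, 20.67 and 16.35 TPM in the control libraries, and 23.47, 13.53 and 14.61 TPM in those of DSS mice. For Lgr5 they were Wbp2, Cul4b and Phf23, at 0.0370, 0.0397 and 0.0423. The Lgr5 pattern spans little on this scale, so many genes with a small steady change come close to it.

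Other genes of the Wnt pathway and of crypt stem cells did pass the test. Apart from the 10 genes above, 123 genes were listed for the pathway, stem cells, ephrins, ErbB receptors and Sox factors, and 63 of them were tested. Of these 8 were higher and 6 lower in DSS organoids, with a median log2 difference of 0.06. This share, 14 of 63, stands beside 10.3% of all genes tested. The lists were written with earlier results of these data known, so the count gives no independent support. Summed levels of myeloid and of proliferation markers separate the same groups, and the part of these markers in these calls was not tested.

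**Figure D4:**
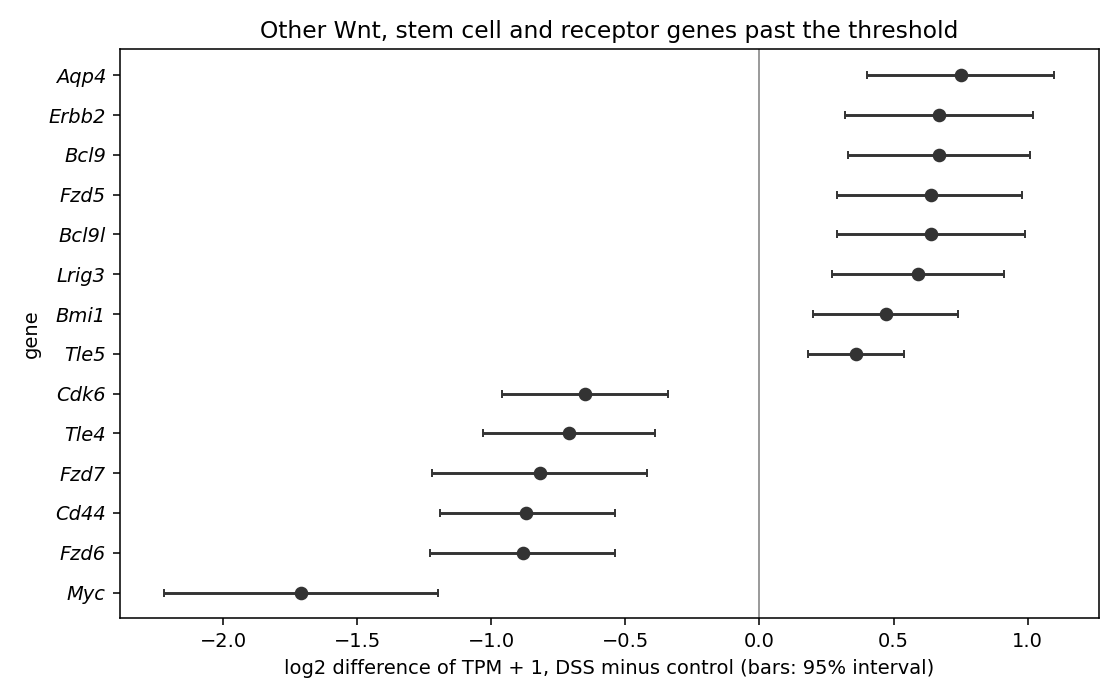
Difference between DSS and control organoids in log2(TPM + 1), with 95% intervals from limma, for the 14 listed genes past the threshold. Myc lies lowest at −1.71 and Aqp4 highest at 0.75.

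Frizzled receptors, which bind Wnt, changed in both directions. Among 8 tested receptors and co-receptors 1 rose and 2 fell. Fzd5 was 16.08, 13.80 and 12.01 TPM in the control libraries, and 23.96, 19.61 and 23.14 TPM in those of DSS mice (log2 difference 0.64, SE 0.14, limma adjusted p = 0.0414). Fzd6 was 9.65, 11.55 and 11.71 TPM in the control libraries, and 5.60, 6.16 and 4.74 TPM in those of DSS mice (−0.88, SE 0.15, adjusted p = 0.0196). Fzd7 fell as well, from 7.59 ± 0.820 to 3.90 ± 0.817 TPM (adjusted p = 0.0323). In all 3 genes the groups did not overlap. The co-receptors Lrp5 and Lrp6 had log2 differences of 0.15 and 0.02 (adjusted p = 0.525 and 0.965), and Ryk, the highest expressed of the list, one of −0.05 (adjusted p = 0.770).

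Inside the cell, calls lay among the nuclear factors and not in the degradation complex, but the lists were not compared by a test. Of 12 tested genes of the complex and of Dishevelled 0 passed in limma, which is near the 10.3% called among all genes tested. At an unadjusted p under 0.05 there were 0 as well, against 29.6% of all genes tested. The list includes Ctnnb1, which encodes beta-catenin and which was at 504.0 ± 24.0 and 442.0 ± 58.3 TPM (log2 difference −0.20, limma adjusted p = 0.319). Of 12 tested TCF factors, coactivators and corepressors 3 rose and 1 fell. The beta-catenin coactivators Bcl9 and Bcl9l rose, from 3.70 ± 0.328 to 6.51 ± 0.718 TPM and from 5.62 ± 0.873 to 9.29 ± 0.846 TPM (adjusted p = 0.0348 and 0.0427). Tle5, a short member of the Groucho family of corepressors, rose from 614.0 ± 4.86 to 787.0 ± 21.8 TPM (adjusted p = 0.0348), and the corepressor gene Tle4 fell from 14.4 ± 1.17 to 8.44 ± 1.11 TPM (adjusted p = 0.0270). The TCF genes Tcf7, Tcf7l1 and Tcf7l2 had log2 differences of −0.11, −0.09 and 0.20 and did not pass (adjusted p = 0.696, 0.829 and 0.683).

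Wnt ligands were scarcely expressed. All 19 ligand genes were at most 0.49 TPM in every library, and 7 were listed at 0 in all. Wls, which carries Wnt proteins to the cell surface, was at 66.7 ± 3.14 and 63.2 ± 9.95 TPM (limma adjusted p = 0.709). Of the secreted inhibitors and their receptors only Kremen1 and Kremen2, receptors for Dickkopf proteins, met the filter, and 0 of the 2 passed, also at an unadjusted p under 0.05. Kremen1 had a log2 difference of 0.28 (adjusted p = 0.200).

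Among 6 tested Wnt target genes outside the group, Myc and Cd44 fell and 0 rose. Cd44, a hyaluronan receptor of crypt cells, was 28.09, 27.00 and 22.22 TPM in the control libraries, and 13.21, 12.50 and 15.26 TPM in those of DSS mice (log2 difference −0.87, SE 0.14, limma adjusted p = 0.0178). Myc had a log2 difference of −1.71 (SE 0.21, adjusted p = 0.0112). The cyclin gene Ccnd1 was lower in every DSS library but did not pass, at 150.0 ± 43.2 and 79.4 ± 23.7 TPM (adjusted p = 0.085). Whether these genes differ in response from Axin2, whose interval reached from −0.74 to 0.53, was not tested as a difference between genes. Lef1 was at most 0.03 TPM in any library. Sp5 had a value of 0 in each control library and was 0.15, 0.24 and 0.13 TPM in DSS libraries. Both were under the filter and were not tested.

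Of 13 tested stem cell genes outside the group, Aqp4 and Bmi1 rose and Cdk6 fell. Aqp4, a water channel, was 58.95, 68.80 and 56.21 TPM in the control libraries, and 88.91, 100.76 and 123.04 TPM in those of DSS mice (log2 difference 0.75, SE 0.15, limma adjusted p = 0.0298). Bmi1, a Polycomb gene, rose by 0.47 (adjusted p = 0.0478) and Cdk6, a cell cycle kinase, fell by 0.65 on the log2 scale (adjusted p = 0.0306). Cd24a, a surface glycoprotein, was 483.56 TPM in DSS replicate 1 and 96.58 to 132.92 TPM in the other 5 libraries. Smoc2 and Tert, which also mark stem cells, were highest in DSS replicate 1, at 1.98 and 1.93 TPM, and did not pass (adjusted p = 0.836 and 0.988). The stem cell marker Olfm4 had a value of 0 throughout.

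The relatives and partners of the surface receptors gave 2 calls. Of 5 tested Lrig and ErbB genes other than Lrig1, Lrig3, a relative of Lrig1, rose from 15.1 ± 0.375 to 23.4 ± 3.77 TPM (limma adjusted p = 0.0430) and the receptor gene Erbb2 from 37.4 ± 4.61 to 60.4 ± 8.54 TPM (adjusted p = 0.0383). Erbb3 had a log2 difference of 0.06 (adjusted p = 0.890) and Egfr one of −0.38 (adjusted p = 0.381). Of 3 tested genes of the ephrin-B system other than Ephb2 and Ephb3, 0 passed in limma and 1, Ephb4, had an unadjusted p under 0.05. Those that did not pass include the ligand gene Efnb1 (0.01, adjusted p = 0.974). Ephb4 was highest in DSS replicate 1, at 48.94 TPM against 13.65 to 24.31 TPM in the other libraries. Of 3 Sox genes other than Sox9, 0 passed in limma and 1, Sox4, had an unadjusted p under 0.05, with log2 differences of 0.47 for Sox4 and 0.22 for Sox13 (adjusted p = 0.0826 and 0.565).

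These 14 calls depended on the filter and on single libraries. With no filter on low values 4 of the 14 passed (Aqp4, Cd44, Fzd6 and Myc), where 20126 genes entered the adjustment. Without DSS replicates 1 and 2 there were 11 and 6 higher and 7 and 6 lower calls among the 63 genes. Without DSS replicate 3 or control replicate 1 only the fall of Myc passed (limma adjusted p = 0.0478 and 0.0443), and without control replicate 2 or 3 there were 0 calls. Over all genes the calls ranged from 30 to 2498 when each library was left out, against 1204 with all.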

How the data were processed

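RNA of 6 organoid cultures, each from a different mouse, was sequenced after library preparation with an NEBNext Ultra II kit, for which strand was not given in the sources used here. The deposited table holds TPM per gene, which the authors computed for build GRCm39. Tools listed in the processing notes of the submitters were cutadapt 3.5, Trim Galore 0.6.7, RSEM 1.3.1 and STAR 2.7.7a and 2.7.10a. TPM keeps no depth, so no counting interval was given, and overlapping antisense genes cannot be told apart.

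Genes with a mean of at least 1 TPM over 6 libraries were tested on log2(TPM + 1) in R 4.3.3 with limma 3.58.1 (empirical Bayes with trend, two-sided, Benjamini-Hochberg over 11643 genes, threshold 0.05), and the fit was tested on simulated data. The pseudocount of 1 understates changes of low genes. Ratios within a library were compared by exact permutation.

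The crypt genes and all lists were chosen with earlier results of these data known. All 10 crypt genes, every listed gene past the threshold, the highest expressed gene of each list and the 3 genes closest to Lgr5 and to Axin2 were named. Other named genes, such as Lrp5, Lrp6, Tcf7, Tcf7l1, Tcf7l2, Kremen2, Lef1, Sp5, Smoc2, Tert, Olfm4, Egfr, Ephb4 and Sox4, were chosen after their values were seen. Alternatives were another pseudocount, other filters, other scalings, no trend, a replicate block and leaving out each library.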

Additional observations from a re-analysis of the deposited data

How the results depend on the processing

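With all 6 libraries 0 crypt genes were called under every other pseudocount, filter, scaling and trend setting run. Leaving out each library gave 0 to 1 higher and 0 to 1 lower calls among them, Ephb2 and Sox9 without DSS replicate 1. The median log2 difference then ran from −0.11 to 0.17. Rnf43 was −0.05 after quantile normalization. Over the left-out libraries the log2 difference ran from −0.54 to 0.34 for Ascl2, −0.36 to 0.05 for Axin2, −0.07 to 0.17 for Rnf43, −0.11 to 0.05 for Znrf3 and −0.50 to 0.01 for Ephb3. It stayed between 0.12 and 0.41 for Lgr4, −1.36 and −0.31 for Sox9, 0.37 and 0.61 for Lrig1 and 0.26 and 0.52 for Ephb2. The DSS minus control difference in the log2 ratio of Lgr5 to Lgr4 was −0.99 with a pseudocount of 0.1. Over the left-out libraries this difference ran from −0.63 to −0.43 for Lgr5 to Lgr4. For Rnf43 to Znrf3 it ran from 0.04 to 0.12 and for Ephb2 to Ephb3 from 0.25 to 1.02. The other listed genes gave 5 higher calls after quantile normalization, and 0 to 11 higher and 0 to 7 lower when a library was left out. Of their 14 calls 4 passed with no filter and 1, Myc, with the replicate block (limma adjusted p = 0.0312). The cause was not tested.

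Over all genes 751 higher and 453 lower calls became 634 and 582 with median-ratio scaling and 564 and 606 with quantile normalization. Calls fell from 1204 to 759 without a filter. With the replicate number as a block there were 531 calls, 0 of them higher and 0 lower among the crypt genes. Same-numbered cultures had correlations of deviations of 0.20, 0.031 and 0.035, and not every culture correlated best with its own number, so the numbers were not taken to pair them. With 3 cultures a group and unknown depth, the low level of Lgr5 allowed no test in the filtered set.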
